A study of Schmidtea mediterranea with 6 samples.

Results

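In animals of the freshwater planarian Schmidtea mediterranea, 120 of the 36035 gene IDs were measured at 5% or less of their unirradiated transcript level 3 days after a lethal dose of irradiation. These members were chosen from the measured values themselves. The unirradiated mean had to be 2 TPM or more (a transcript level scaled for transcript length and to the same sum in each library). The irradiated mean had to be 5% or less of the unirradiated mean, and the lowest unirradiated library had to lie above the highest irradiated one. Of all IDs, 18040 had an unirradiated mean of 2 TPM or more, so that the members made up 0.665% of the IDs that could have been chosen. Because the rule used the comparison of irradiated with unirradiated animals, the levels of the members in the 2 groups are described here and not tested.

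Whole bodies of wild-type animals were sequenced in 2 groups of 3 libraries. One group had no treatment and was labelled day 0, and the other was taken 3 days after lethal irradiation. All 6 libraries came from animals of the same WT genotype, and the labels do not give the strain, the age, the number of animals in a library or the size of the irradiation dose. Treatment and day cannot be told apart, since no untreated animals were taken on day 3, and the labels do not say that the libraries of a group came from separate cultures, so the spread between libraries may be technical. The library totals ran from 12635699 to 20914353 estimated counts, with replicate 3 the deepest in each group.

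Planarians hold a population of dividing stem cells, the neoblasts, the only dividing cells of the adult outside the germ line and the source of its new tissue. Radiation kills these cells first, and their descendants are no longer replaced, while differentiated tissue persists for a time. Transcripts that disappear after irradiation are therefore a classical way of listing candidates for expression in neoblasts and their early progeny. In libraries of whole bodies, fewer cells of a type and less RNA per cell cannot be told apart. The deposited tables do not pair the gene IDs with gene names or functions and no annotation was used here, so that no role, cell type marker or sequence can be given for a member. By the rule for naming, 2 members are given with their IDs and the others are called by their rank of unirradiated TPM among the 120.

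The members ranged widely in abundance, and a few of them carried most of the transcript that was lost. Unirradiated means ran from 2.03 to 2089 TPM with a median of 5.47, and the quartiles were 3.03 and 12.1 TPM. Of the 120, 10 were at 100 TPM or more, 25 at 10 to 100 TPM, 28 at 5 to 10 TPM and 57 at 2 to 5 TPM. These were 0.816% of the 1225 IDs at 100 TPM or more, 0.335% of the 7471 at 10 to 100 TPM, 0.725% of the 3863 at 5 to 10 TPM and 1.04% of the 5481 at 2 to 5 TPM.

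Together the members held 8649, 8754 and 8299 TPM in unirradiated replicates 1, 2 and 3. In irradiated replicates 1, 2 and 3 they held 23.3, 29.1 and 29.7 TPM. As a share of all TPM this was 0.857 ± 0.024% before and 0.00274 ± 0.00035% after irradiation (SD, n = 3), so that 0.320% of the summed level was left. The most abundant member alone made up 24.4% of the summed unirradiated level, the 4 most abundant 62.6% and the 10 most abundant 86.8%. After irradiation the same 10 held 37.2% of what was left, and the 25 members of 10 to 100 TPM held 37.4% of it against 8.70% before.

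**Figure D1:**
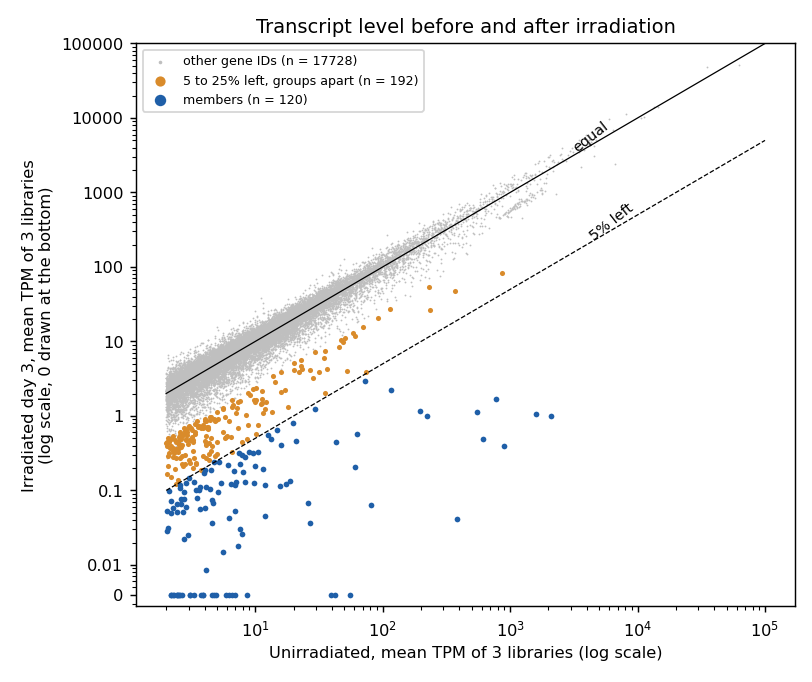
Mean TPM of the 3 irradiated libraries against mean TPM of the 3 unirradiated libraries, both on log scales, for the 18040 gene IDs with an unirradiated mean of 2 TPM or more; the solid line marks equal levels and the dashed line 5% left. The 120 members (blue) lie on or under the dashed line at all abundances, 27 of them at 0, and 192 IDs with more than 5% and up to 25% left whose groups did not overlap (orange) lie between them and the mass of other IDs (grey).

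Among the 10 members of 100 TPM or more, the 7 most abundant had the least left, with 0.0109% to 0.217% of their unirradiated TPM. They held 167907 estimated counts over the unirradiated libraries and 119 over the irradiated libraries. The highest of all, first in rank, measured 2147, 2151 and 1969 TPM in unirradiated replicates 1 to 3 and 0.975, 1.79 and 0.213 TPM in irradiated replicates 1 to 3. The second, SMED30014876, measured 1582, 1576 and 1639 TPM before and 1.08, 1.46 and 0.630 TPM after. In both, the lowest unirradiated library, at 1576 TPM or more, lay far above the highest irradiated library, at 1.79 TPM or less.

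The third member measured 928.5, 922.6 and 830.2 TPM in unirradiated replicates 1 to 3 and 0.866, 0.193 and 0.114 TPM in irradiated replicates 1 to 3. The fourth measured 766.2, 802.4 and 768.7 TPM before and 0.907, 2.24 and 1.93 TPM after. The fifth measured 625.7, 615.2 and 595.6 TPM before, and 0, 1.38 and 0.111 TPM after. The unirradiated libraries of each of these members lay close together, whereas the irradiated ones, with 0 to 16 counts per library, differed more in proportion. The irradiated spread was smallest in the fourth member, from 0.907 to 2.24 TPM.

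The sixth member measured 519.8, 593.2 and 533.2 TPM in unirradiated replicates 1 to 3 and 0.549, 1.87 and 0.973 TPM in irradiated replicates 1 to 3. The seventh measured 394.4, 422.5 and 327.8 TPM before, while only irradiated replicate 1 had any of it, at 0.125 TPM. This seventh member went from 11208 counts to a single count over the irradiated group, and 0.00937% of its CPM (counts scaled to the library total) was left (exact 95% interval 0.000237% to 0.0522%). This was the lowest value among the 10 members of 100 TPM or more, with an interval that overlapped those of ranks 1, 2, 3 and 5, and its unirradiated libraries were also the most variable of those 10, with a coefficient of variation of 12.7%.

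The other 3 members of 100 TPM or more kept more. The eighth measured 219.4, 214.8 and 238.7 TPM in unirradiated replicates 1 to 3 and 0.973, 1.25 and 0.811 TPM in irradiated replicates 1 to 3. The ninth measured 202.4, 195.1 and 193.4 TPM before and 0.830, 1.20 and 1.49 TPM after. Both were present in each irradiated library with 18 counts or more.

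The tenth, SMED30007406, had the most counts of all members after irradiation, and its libraries were the closest together of those 10 in both groups. It measured 115.6, 117.2 and 115.4 TPM in unirradiated replicates 1 to 3 and 2.21, 2.37 and 2.06 TPM in irradiated replicates 1 to 3. Its counts were 5022, 4996 and 7958 before and 90, 97 and 130 after, and it was the only member with more than 100 counts over the irradiated group. The level left was 1.85% of its CPM (exact 95% interval 1.65% to 2.07%), an interval that lay entirely above those of the 9 more abundant members.

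**Figure D2:**
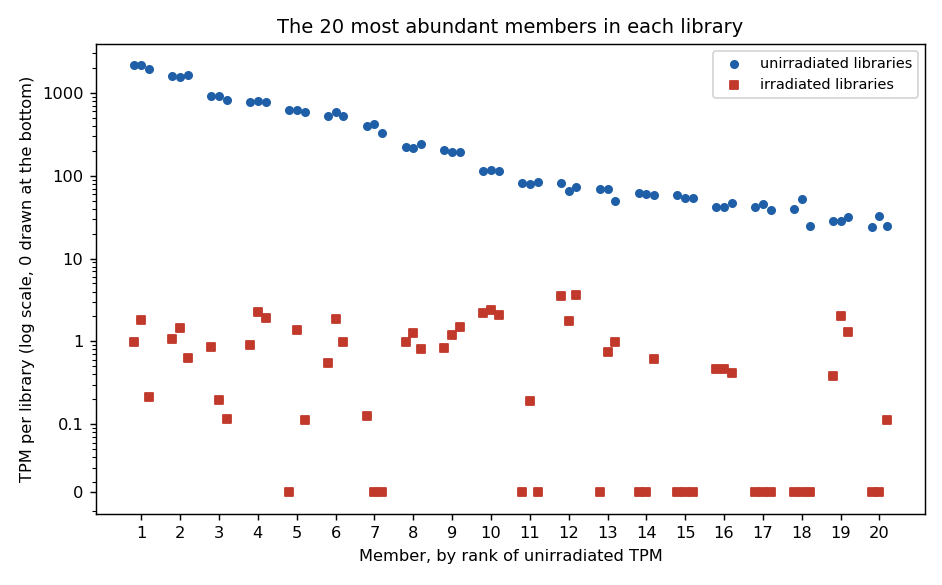
TPM in each of the 3 unirradiated (blue circles) and 3 irradiated (red squares) libraries, on a log scale with 0 drawn at the bottom, for the 20 most abundant members in order of rank. The unirradiated libraries fall from about 2089 TPM on average at rank 1 to 27.0 TPM at rank 20, while the irradiated libraries scatter between 0 and 3.64 TPM without a steady fall.

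The TPM left followed the order of abundance before irradiation only in part. Of the 10 members with the highest irradiated means, 7 were also among the 10 most abundant before. The members with the highest irradiated means were ranks 12 and 10, at 2.98 and 2.21 TPM, followed by rank 4 at 1.69 TPM. Rank 12 measured 81.1, 64.8 and 73.3 TPM in unirradiated replicates 1 to 3 and 3.52, 1.78 and 3.64 TPM in irradiated replicates 1 to 3, or 4.08% left. Rank 19 measured 28.7, 28.2 and 31.4 TPM before and 0.384, 2.02 and 1.31 TPM after, or 4.20% left. By contrast rank 15, at 58.1, 53.8 and 54.5 TPM before, had no count in any irradiated library. Its 1682 unirradiated counts make it at least 534-fold lower, with a floor of 3 counts over all irradiated libraries.

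Across all 120 members the median level left was 1.43% of the unirradiated TPM, with quartiles of 0.0615% and 2.84%. Without irradiated replicate 3, the deepest irradiated library, the median was 0.539%. By abundance, the medians were 0.143% for the members of 100 TPM or more, 0.998% for 10 to 100 TPM, 1.78% for 5 to 10 TPM and 1.62% for 2 to 5 TPM. The ranges overlapped widely, from 0.0109% to 1.90% in the first of these classes and from 0 to 4.998% over the others.

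Among the 18040 IDs at 2 TPM or more, 27 members and 1 other ID had nothing left, 6 IDs had up to 0.1% left, 12 had 0.1% to 0.5%, 11 had 0.5% to 1%, 16 had 1% to 2% and 48 had 2% to 5%. A further 43 had 5% to 10%, 159 had 10% to 25% and 723 had 25% to 50%. The members are thus one end of a range that continues on the other side of the 5% limit without a gap. The 3 members nearest to the limit had 4.74%, 4.75% and 4.998% left, and the 3 nearest IDs outside it, with groups that did not overlap, had 5.04%, 5.09% and 5.14%. At the other limit, the least abundant member was at 2.03 TPM, the nearest ID below was at 1.99 TPM, and 45 IDs of 1 to 2 TPM met the rest of the rule. Groups did not overlap, with irradiated libraries the lower, for 22.9% of the 18040 IDs at 2 TPM or more, and 1 ID met both limits but had groups that overlapped.

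Counts after irradiation were few, which limits how exactly the remaining level is known. Over the 3 irradiated libraries, 27 members had no count, 31 had 1 to 3, 27 had 4 to 10, 34 had 11 to 100 and 1 had more. Irradiated replicates 1, 2 and 3 held 353, 406 and 589 member counts and had a count for 60, 62 and 84 members at totals of 12714020, 12635699 and 19329424. Scaled to the library total the members held 27.79, 32.11 and 30.45 CPM, so that replicate 3, which detected the most members, lay between the other 2 for its depth. A count was present in all 3 irradiated libraries for 44 members, in 2 of them for 25, in 1 for 24 and in none for 27.

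The counting interval of the level left (exact 95%; for members without a count, the floor of 3 counts) lay wholly below 5% for 58 members and reached 5% for the other 62. Of these 62, rank 111 had no irradiated count and a floor that reached 5.0% only after rounding. The interval lay wholly below 1% for 18 members and wholly above 1% for 33, and whether members differed beyond the spread between libraries was not tested. All 10 members of 100 TPM or more had an upper limit below 5%, against 15 of the 57 members of 2 to 5 TPM. These intervals cover counting error only, since amplified reads without molecular identifiers are not independent molecules.

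For 15 of the 27 members without an irradiated count, the floor itself lay above 5% of the unirradiated level, so that their place among the members rests on too few counts to be known. The extremes were ranks 104 and 105, whose 2.54 and 2.48 TPM came in each case from 2, 1 and 1 counts in unirradiated replicates 1 to 3, and each was at least 1.27-fold lower. The other 12 were each at least 20-fold lower. Of the 3 members of 10 TPM or more without a count, rank 15 is given above. Rank 17 measured 41.9, 46.1 and 38.3 TPM in unirradiated replicates 1 to 3 and was at least 219-fold lower. Rank 18 measured 39.3, 52.8 and 24.8 TPM from only 57 counts and was at least 18.1-fold lower. Among all members, with or without an irradiated count, the floor lay above 5% for 21, the 15 given above included.

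**Figure D3:**
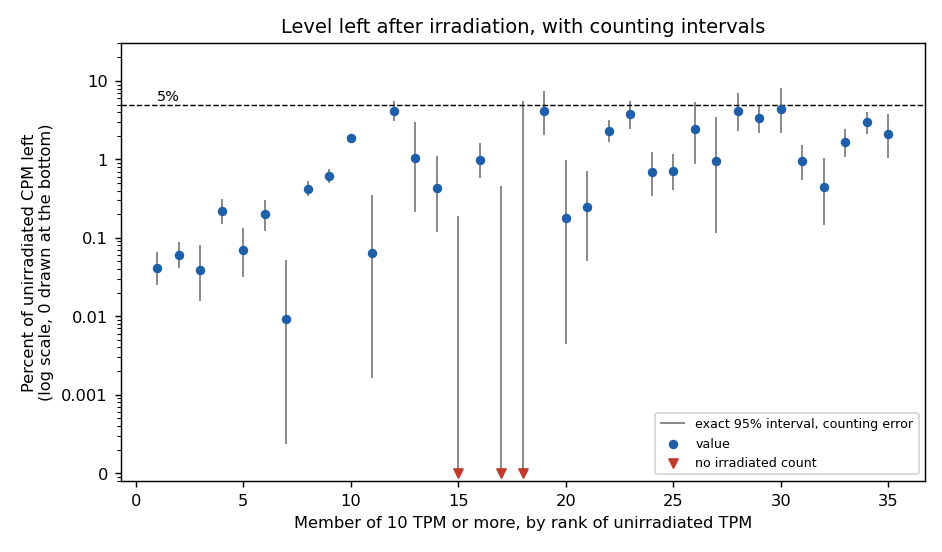
Percent of the unirradiated CPM left after irradiation, on a log scale with 0 drawn at the bottom, for the 35 members of 10 TPM or more in order of rank; blue points are values, grey lines exact 95% intervals for counting error, and red triangles the 3 members without an irradiated count, whose lines end at the floor of 3 counts. Ranks 1 to 7 lie between 0.00937% and 0.220%, and the lines of several members from rank 12 on reach the dashed line at 5%.

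Counts that were not whole were found in the most abundant members. Such counts can arise where a read is divided between gene IDs, but the counting program is not given in the sources used here, and sharing of reads is inferred below only where the counts of IDs add to whole numbers. Of the 120 members, 11 had such a count in at least 1 library (9.17%), close to the 12.9% of the 17920 other IDs at 2 TPM or more. They were not spread evenly: 5 were among the 10 members of 100 TPM or more, and the 4 most abundant members were all of this kind. These 4 were partners of each other, as given below. At 10 TPM or more the share was 17.1% of 35 members and 10.7% of 8661 other IDs. No share was taken for the other IDs of 100 TPM or more. For each of the 11, the other IDs were searched for a partner whose counts added to whole numbers with its own in every library, within 1e-04.

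Ranks 1 and 3 were such partners of each other, and so were ranks 2 (SMED30014876) and 4. If reads were divided within a pair, its sum does not depend on how. Ranks 1 and 3 together had 19485, 19014 and 28035 counts in unirradiated replicates 1 to 3 and 11, 12 and 3 counts in irradiated replicates 1 to 3. This left 0.0410% of their CPM (exact 95% interval 0.0268% to 0.0601%). Ranks 2 and 4 together had 18212, 17936 and 29548 counts before and 14, 24 and 24 after, which left 0.0991% (exact 95% interval 0.0760% to 0.127%). The counting intervals of the 2 pairs did not overlap over all libraries, but this rested on irradiated replicate 3. Without it, in an alternative chosen after seeing the data, 0.0640% was left of ranks 1 and 3 (0.0405% to 0.0960%) and 0.107% of ranks 2 and 4 (0.0757% to 0.147%), and the intervals overlapped.

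Other members had such partners among IDs that stayed present. The eighth member formed a set of 3 with a long ID at 51.1 ± 2.1 TPM before and 52.1 ± 1.8 TPM after irradiation, and with another at 39.2 ± 0.6 and 34.7 ± 1.6 TPM (SD, n = 3). Its own counts, 80 over the irradiated group, were not whole in any of the 6 libraries. The rank 36 member, not whole in 1 library, had as its partner an ID at 27.9 ± 1.2 TPM before and 27.5 ± 0.6 TPM after, against 9.83 and 0.126 TPM for the member itself. This match rests on that 1 library alone, and whether it arose by coincidence was not tested. The rank 92 member had as its partner an ID that went from 13.4 ± 0.8 to 7.61 ± 0.50 TPM (SD, n = 3), while the member went from 2.86 to 0.127 TPM. How much of the level left in these 3 members came from their partners was not tested.

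The remaining 4 members with counts that were not whole had scarce partners or none that was found. The partners of ranks 27 and 58 were at 1.004 and 0.117 TPM before irradiation, below the limit of the rule, and had no count after it. For ranks 64 and 78, no pair or set of 3 was found. These were the 2 longest members, and both were well counted before irradiation and not seen after it. Rank 64 measured 5.32, 5.15 and 4.20 TPM in unirradiated replicates 1 to 3 from 1304 counts, and was at least 414-fold lower. Rank 78 measured 3.76, 4.93 and 3.09 TPM from 1095 counts, and was at least 348-fold lower.

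Members tended to be short. Effective length was obtained by dividing count by TPM in the unirradiated libraries, and is given relative to the median of the 18040 IDs at 2 TPM or more. The rule set no limit on length, but TPM is scaled by it, so that a short ID reached 2 TPM with fewer counts. The part that this has in the shortness of the members was not tested. The median relative length of the members was 0.768, with quartiles of 0.312 and 1.57, against 1, 0.376 and 1.91 for the other IDs at 2 TPM or more. Of the members, 49 (40.8%) were longer than the median ID. The 192 IDs with more than 5% and up to 25% left had a median of 0.648 and 36.5% longer than the median ID, so that shortness was not seen in the members alone. Genes are not replicates, and these differences are descriptions without a test.

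The 7 most abundant members were all short and alike in length, between 0.379 and 0.584 of the median ID. Ranks 8, 9 and 10 were long, at 1.63, 1.54 and 2.91. In the 35 members of 10 TPM or more the median was 0.565, against 1.12 in the 8661 other IDs of that abundance and 0.563 in the 48 IDs of that abundance with more than 5% and up to 25% left. Lengths of the members ran from 0.0292, in rank 18, to 5.44, in rank 78.

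Length and the level left went together among the members, but so did the number of counts. The 71 members shorter than the median ID had a median of 0.402% left, with 23 of them without an irradiated count and a median of 136 unirradiated counts. The 49 longer members had a median of 1.90% left, with 4 of them without an irradiated count and a median of 502 unirradiated counts. The part that depth of counting has in this difference was not tested.

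**Figure D4:**
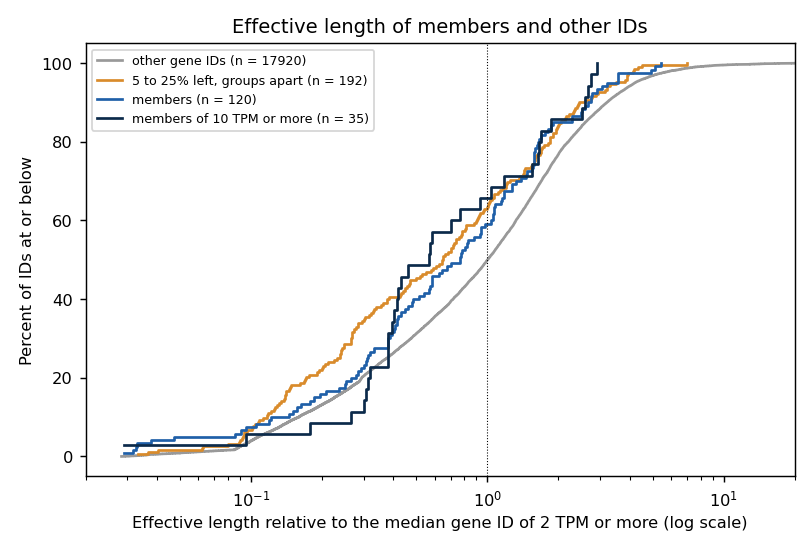
Cumulative percent of gene IDs against effective length, relative to the median ID of 2 TPM or more and on a log scale, for the 120 members (blue), the 35 members of 10 TPM or more (dark blue), the 192 IDs with more than 5% and up to 25% left (orange) and the 17920 other IDs of 2 TPM or more, these 192 among them (grey). The curves of the members reach 50% at 0.768 and 0.565, left of the grey curve at 1, and the orange curve lies close to theirs at 0.648.

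Within the unirradiated group the median spread of the members was close to that of other IDs counted as deeply. The rule itself limits this spread, since each unirradiated library of a member had to lie above every irradiated one. The other IDs had no such limit, so nothing is read from the likeness. With fewer than 100 counts, the highest coefficient of variation was 73.8% in members and 173% in the others. With 1000 or more counts over the unirradiated libraries, the median coefficient of variation of TPM was 4.80% in 26 members and 4.92% in 6833 other IDs. With 100 to 1000 counts it was 11% in 63 members and 10.1% in 7544 others, and with fewer than 100 counts 28.9% in 31 members and 28.5% in 3543 others. Counting error alone would give the members a median of 4.24%, 10% and 31.1% in these 3 classes. No unirradiated library stood out: replicates 1, 2 and 3 were the highest for 42, 43 and 35 members and the lowest for 36, 39 and 45.

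The measured spread differed between single members, but whether it did so beyond counting error was not tested. SMED30007406 varied by 0.815% between unirradiated libraries, the least of the 26 members with 1000 or more counts. The most variable of the 26 were rank 78, at 23.7%, and the seventh member, at 12.7%. In the irradiated group 13 members had 20 or more counts, and their coefficients of variation ran from 6.91%, in SMED30007406, to 59.5%, with a median of 34.3% against 32.6% from counting error alone. Of the 10 most abundant members, 7 were highest in irradiated replicate 2, 2 in replicate 1 and 1 in replicate 3.

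In edgeR's quasi-likelihood test on the counts, fitted over all IDs, 100 of the 120 members passed the low-count filter and all 100 were called lower at an adjusted p below 0.05. Over the 20378 IDs tested 20.4% were called lower. The rule used the same comparison, and the 100 that passed had to be high in the unirradiated group, so nothing is read from this count. Their log2 fold changes ran from -13.01 to -4.27, and fitted values of members with no irradiated count depend on the prior count. The 20 members that did not pass held 4 to 63 counts over the unirradiated libraries and were very short, with a median relative length of 0.132, so that a level of 2 TPM or more came from few reads.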

How the data were processed

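RNA of whole animals was sequenced in 6 libraries. Per the labels' protocols, TRIGene reagent was used for RNA and a NEBNext kit for Illumina libraries. The authors deposited estimated counts per gene ID, not whole for 7.72% to 9.34% of IDs per library at a tolerance of 1e-06, and TPM, scaled by the authors for transcript length to the same sum in each library. Not given in the sources used here are the aligner, the counter, the transcript set, the build and the strandedness. Columns were matched to samples by the description labels, and 0 columns belonged to no sample.

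Members were chosen on TPM by the stated rule. Members, tests and gene lists were chosen with earlier results of these data known. Lists of stem cell and replication genes had been prepared by name, and none could be used because no ID has a name here. The rule for naming gave IDs to the 2 members of smallest edgeR p among the 20 of highest unirradiated TPM. The level left was computed from mean TPM, and its intervals from summed counts over library totals (exact conditional binomial, 95%, scipy 1.17.1). Members without an irradiated count were given a floor of 3 counts over the irradiated group.

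Counts were rounded and tested with edgeR 4.0.16 (R 4.3.3), with TMM scaling, the default low-count filter from a minimum count of 10, no covariate and Benjamini-Hochberg adjustment over all IDs tested. The fit was tested on simulated data. Alternatives were other scalings and filters, DESeq2 1.42.0, limma 3.58.1 on log2(TPM + 0.1) and log2(TPM + 1), the replicate number as a block, other limits of the rule and leaving out each library. No pair of libraries of a group agreed within sampling noise, with chi-square per degree of freedom from 2.55 to 5.26.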

Additional observations from a re-analysis of the deposited data

How the results depend on the processing

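The number of members stayed within 1.5 times of 120 under all alternatives but one, the limit of 5 TPM, which left 63. A limit of 0.025 on the ratio gave 81 members and a limit of 0.1 gave 163. CPM in place of TPM gave 107 members, of which 90 were among the 120, and TMM-scaled CPM gave 110, again with 90 among them. Leaving out 1 library at a time gave 118 to 137 members, with 112 to 117 of the 120 among them. The median level left moved from 1.43% to 0.539% without irradiated replicate 3, and leaving out each library in turn gave 0.539% to 1.45%. That library is the deepest irradiated one, and the cause was not tested. Among members with whole counts only, the share of all TPM was 0.294% in unirradiated and 0.00216% in irradiated animals in place of 0.857% and 0.00274%, since 11 members drop out, the 4 most abundant among them. The members called lower numbered 73 to 117 over all alternatives, which follows the number tested: 73 with at least 50 counts in 3 libraries and 117 of 120 without a filter. Over all IDs tested, 26.4% and 13.1% were called lower in these 2 settings. Leaving out each library gave 101 to 106 members, beside 17.1% to 18.4% of all IDs tested.

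With the replicate number as a block, 100 members were called lower, as without it, beside 19.9% of all IDs tested against 20.4% without it. No source says that the numbers pair libraries, and deviations of equal numbers from their group means correlated at -0.045, 0.067 and -0.071. The log2 fold change of SMED30014876 ran from -10.99 to -9.62 and that of SMED30007406 from -5.85 to -5.19 over the alternatives. Depth limits the scarce members most, since 31 of the 120 held fewer than 100 counts over the unirradiated group.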

Other observations

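The numbers in the gene IDs of the members were spread over the whole series. The 2 members closest in number lay 7 apart, so that no 2 members had neighbouring IDs. No source used here says what the order of the IDs stands for. The 1 ID that met both limits of the rule but had groups that overlapped measured 2.13, 4.38 and 0 TPM in unirradiated replicates 1 to 3 and 0 TPM in each irradiated library.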
